A study of Mus musculus with 16 samples.

Results

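The 5 genes described here were chosen by name as regulators and products of plasma cells: Irf4, Prdm1, Xbp1, Sdc1 and Igj (Jchain in current naming). Each was read by 1 probe and 1 spot, so they make up 5 of the 34741 features and 5 of the 55681 probes on the array. The features include unnamed intergenic intervals. On the mm9 build the probes lie at chr13:30858532-30858591 (+ strand) for Irf4, chr10:44157089-44157148 (- strand) for Prdm1, chr11:5425816-5425875 (+ strand) for Xbp1, chr12:8799383-8799442 (+ strand) for Sdc1 and chr5:88949919-88949978 (- strand) for Igj. All groups were of the AM14 strain, in which the B cell receptor recognises IgG, and RNA came from B cells of the spleen. The genotypes were Tlr7/9-/- (no TLR7 and no TLR9), Tlr9-/-, Tlr7-/- and WT, each at 0 h without stimulus and at 6, 24 and 42 h of PL2-3, a monoclonal autoantibody that binds chromatin. Each of the 16 combinations was read on 1 array, with the sample in Cy5 and, in Cy3, a common pool made from resting B cells of the 4 genotypes. Values are log2 of Cy5 over Cy3, so 0 is the level of the pool.

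A B cell that becomes an antibody-secreting plasma cell changes its transcription factors, its surface and its secretory apparatus. Irf4 is induced by antigen receptor signals and, at sustained high levels, supports the expression of Prdm1, which encodes Blimp-1, the repressor that shuts down B cell genes. Xbp1, whose mRNA is spliced under stress of the endoplasmic reticulum, then drives the genes for folding and secretion. Sdc1 encodes CD138, a surface proteoglycan that marks plasma cells, and Igj encodes the joining chain that links secreted IgM and IgA into polymers.

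No genotype had a replicate array at any time. A limma p-value for a change over time therefore sets that change against how far the time courses of WT, Tlr7-/- and Tlr9-/- disagreed with each other. One for a genotype sets its difference against how far genotype differences disagreed between the times, pooled over all genotypes. For Tlr7/9-/- cells against the rest, that spread also holds the disagreement between the other genotypes. Cultures without PL2-3 were not analysed here, so effects of PL2-3 and of culture time cannot be told apart. The sources used here do not state the age or sex of the mice, the PL2-3 dose or whether mice were pooled. WT and Tlr7-/- RNA lay on 1 slide and Tlr9-/- and Tlr7/9-/- RNA on the other, so TLR9 and the slide cannot be told apart. The comparisons with the 0 h arrays share those arrays, and the genotype comparisons share the stimulated arrays. Between 37.4% and 62.7% of spots stood well above background in Cy5. On the WT 42 h array 14.9% of bright spots were over 2-fold low in the common pool, against at most 4.02% on the other 15 arrays. The Xbp1 spot of that array was 11.6-fold and the Igj spot 3.67-fold below the usual pool signal, and the Irf4 spot of the WT 0 h array was 2.65-fold below it. For the main fit, changes over time and genotype differences that rest on these spots are given with and without them. The exception is the Irf4 response difference, which needs the WT 0 h spot.

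**Figure D1:**
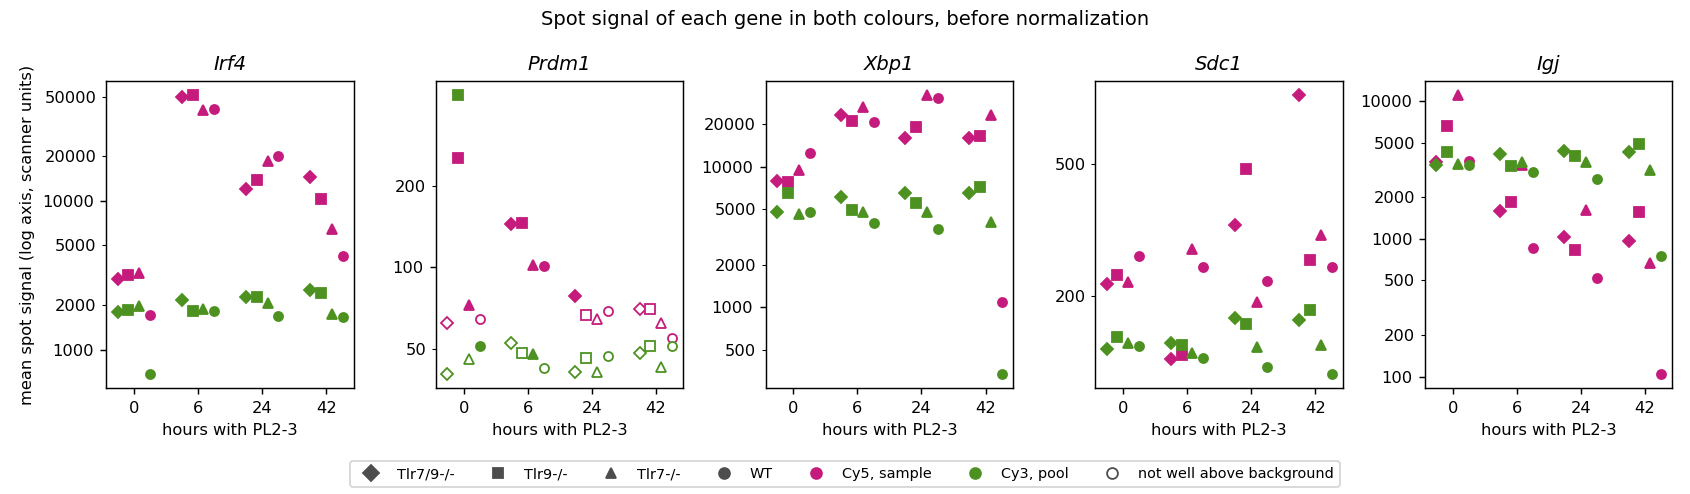
Mean spot signal of the 5 genes (log axis, scanner units, before any correction) in the sample colour (Cy5) and in the pool colour (Cy3), by time and genotype, with open symbols where a spot was not well above background. Irf4, Xbp1 and Igj were bright, Prdm1 was near background on most arrays, and the WT 42 h spots of Xbp1 and Igj and the WT 0 h spot of Irf4 were low in the pool colour too.

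The sequence just before the start of 3 genes that changed over time is shown because Irf4 and Prdm1 were both highest at 6 h while Igj fell. Each sequence is the 250 bases before the start in RefSeq on the GRCm38.p6 build: Irf4 at chr13:30748983-30749232 on the + strand, Prdm1 at chr10:44458749-44458998 on the - strand and Igj at chr5:88527898-88528147 on the - strand. Capitals mark the only match found there to 5 motifs searched on both strands.
Irf4: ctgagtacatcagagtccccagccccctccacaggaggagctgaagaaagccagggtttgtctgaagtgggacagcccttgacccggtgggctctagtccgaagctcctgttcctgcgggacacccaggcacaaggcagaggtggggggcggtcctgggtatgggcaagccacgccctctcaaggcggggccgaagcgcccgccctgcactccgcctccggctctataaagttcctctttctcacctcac
Prdm1: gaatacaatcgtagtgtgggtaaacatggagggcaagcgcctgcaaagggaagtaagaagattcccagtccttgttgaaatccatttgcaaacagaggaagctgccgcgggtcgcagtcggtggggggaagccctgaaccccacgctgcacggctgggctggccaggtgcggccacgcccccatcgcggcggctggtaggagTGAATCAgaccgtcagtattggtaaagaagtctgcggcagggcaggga
Igj: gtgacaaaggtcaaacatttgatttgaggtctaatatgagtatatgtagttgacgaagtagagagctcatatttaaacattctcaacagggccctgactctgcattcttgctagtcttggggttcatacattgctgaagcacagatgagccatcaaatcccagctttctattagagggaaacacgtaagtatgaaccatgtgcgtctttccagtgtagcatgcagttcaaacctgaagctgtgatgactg
The motifs were the composite element of ETS factors and IRF4 (EICE, GGAA and GAAA spaced by 2 bases), the interferon response element (ISRE, GAAA and GAAA spaced by 2 bases), the AP-1 site (TGANTCA), the element of the unfolded protein response (UPRE, TGACGTG) and the octamer of antibody genes (ATGCAAAT). Prdm1 held 1 AP-1 match starting 48 bases before the start, and no other match was found in the windows of the 5 genes. Over all 32851 promoters of the same length, 2.30% held the EICE, 2.98% the ISRE, 6.75% the AP-1 motif, 1.65% the UPRE and 1.60% the octamer. GC content was 63.6% for Irf4, 59.2% for Prdm1, 50.4% for Xbp1, 66.0% for Sdc1 and 42.0% for Igj.

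Expression over time was compared with 0 h first. At 6 h, Irf4, Prdm1 and Xbp1 rose and Igj fell, so that 4 of the 5 genes passed an adjusted p of 0.05 (limma, Benjamini-Hochberg over 22585 genes), against 46.6% of all genes tested. Of all genes tested, 22.8% were higher and 23.8% lower, so that 49.0% of the calls were higher, against 75.7% with arrays centred on their median in place of loess. At 24 h, Irf4 was still raised and Igj was lower again, which made 2 of 5 genes against 48.5% of all genes. At 42 h, Xbp1 was higher and Igj lower, 2 of 5 genes against 37.8%. The shares of all genes were so large that the number of these genes past the threshold does not set them apart, and the sizes and time courses are given below. In bulk RNA, fewer cells of a type and less RNA per cell cannot be told apart.

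**Figure D2:**
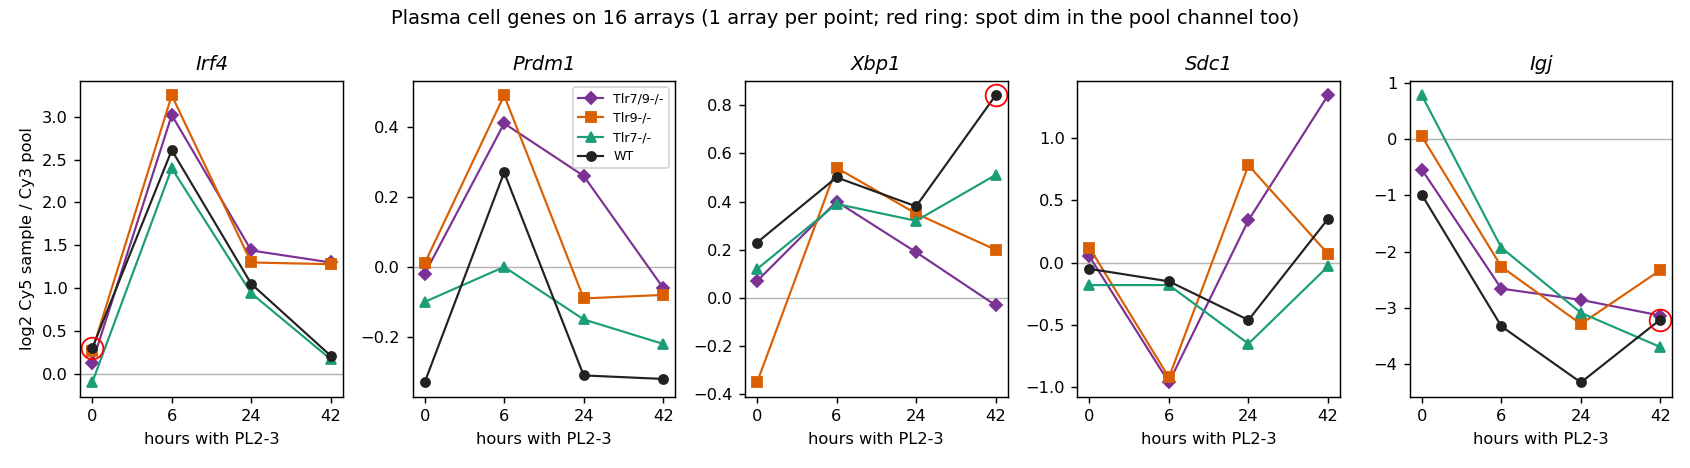
Log2 ratio of sample to pool for each gene at 0, 6, 24 and 42 h, 1 array per point, with a line per genotype; the vertical scale differs between panels and red rings mark spots that were dim in the pool as well. Irf4 peaked at 6 h in all 4 genotypes and Igj fell in all 4, while Sdc1 took different courses on the 2 slides.

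Irf4, which encodes the factor that turns activated B cells toward plasma cell fate when its level stays high, had its highest value at 6 h in every genotype. At 0 h its log2 ratio was 0.13 in Tlr7/9-/-, 0.27 in Tlr9-/-, -0.10 in Tlr7-/- and 0.30 in WT cells. At 6 h it was 3.02 in Tlr7/9-/-, 3.25 in Tlr9-/-, 2.40 in Tlr7-/- and 2.61 in WT cells. All 4 arrays at 6 h lay above all 4 at 0 h, with no overlap. At 24 h the ratio was 1.44 in Tlr7/9-/-, 1.30 in Tlr9-/-, 0.94 in Tlr7-/- and 1.05 in WT cells, again above every 0 h array. At 42 h it was 1.30 in Tlr7/9-/-, 1.28 in Tlr9-/-, 0.17 in Tlr7-/- and 0.21 in WT cells. The 42 h arrays thus fell into a high pair without TLR9 and a low pair with TLR9 that overlapped the 0 h arrays.

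Over the 3 genotypes that carry TLR7 or TLR9 or both, Irf4 averaged 2.75 ± 0.44 at 6 h, against 0.16 ± 0.22 at 0 h (SD, n = 3 arrays each). This was a rise of 2.60 ± 0.18 (SE), or 6.05-fold (limma adjusted p = 3.41e-06, higher in 3 of 3 genotypes). At 24 h Irf4 was 0.94 ± 0.18 above 0 h, or 1.92-fold (adjusted p = 0.00208). With the dim WT 0 h spot missing these changes were 2.76 at 6 h and 1.1 at 24 h. At 24 h it was lower than at 6 h by -1.66 ± 0.18, or 3.16-fold (adjusted p = 0.000313). Irf4 and Prdm1 were the 2 of 5 genes that changed between these times, both lower, against 32.0% of all genes changed, 14.1% higher and 17.9% lower. The change of 0.40 ± 0.18 at 42 h did not pass (adjusted p = 0.122), nor did the change of -0.54 ± 0.18 between 24 and 42 h (adjusted p = 0.116). The 42 h value depended on the arrays used: it was 0.56 with dim spots set to missing, which takes out the WT 0 h spot (adjusted p = 0.0362), 0.59 with the Tlr7/9-/- arrays added (adjusted p = 0.014) and 0.09 without the Tlr9-/- arrays (adjusted p = 0.55). Without the Tlr9-/- arrays Irf4 fell by 0.81 at 42 h relative to 24 h (adjusted p = 0.00167). That fit rests on WT and Tlr7-/- cells alone, 2 arrays a time on the same slide. With arrays centred on their median in place of loess, which moved the median of all genes by 0.22 at 6 h and 0.23 at 24 h, Irf4 changed by 3.54 at 6 h and 1.97 at 24 h, so the size of the rise depends on the scaling and its direction does not.

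Prdm1, which encodes Blimp-1, gave little signal. Its spot was well above background in Cy5 on 7 of 16 arrays, among them all 4 of the 6 h arrays, and in Cy3 on 3 arrays. At 0 h the log2 ratio was -0.02 in Tlr7/9-/-, 0.01 in Tlr9-/-, -0.10 in Tlr7-/- and -0.33 in WT cells. At 6 h it was 0.41 in Tlr7/9-/-, 0.49 in Tlr9-/-, 0.00 in Tlr7-/- and 0.27 in WT cells. The Tlr7-/- array at 6 h lay within the range of the 0 h arrays and the other 6 h arrays lay above it. At 24 h it was 0.26 in Tlr7/9-/-, -0.09 in Tlr9-/-, -0.15 in Tlr7-/- and -0.31 in WT cells, and at 42 h it was -0.06 in Tlr7/9-/-, -0.08 in Tlr9-/-, -0.22 in Tlr7-/- and -0.32 in WT cells. The later arrays overlapped the 0 h arrays, except that Tlr7/9-/- at 24 h lay above them.

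The 6 h rise of Prdm1 was 0.39 ± 0.11, or 1.31-fold, with 0.25 ± 0.24 at 6 h against -0.14 ± 0.18 at 0 h (SD, n = 3; limma adjusted p = 0.0142, higher in 3 of 3 genotypes). At 0 h the spot was well above background in Cy5 on 2 of these 3 arrays, and in the pool colour it was so on few arrays, so the size is uncertain. At 24 h it fell by 0.44 ± 0.11 relative to 6 h (adjusted p = 0.0137), a call lost under 5 of 16 alternatives. At 24 and 42 h the spot was not well above background on any of the 3 TLR-bearing arrays. A ratio was therefore taken in the Cy5 channel. It set the 6 h mean against the higher of the spot and the lowest signal well above background on each array. After background correction and with an offset of 50 added, Cy5 signal at 6 h was 1.5-fold that at 24 h and 1.51-fold that at 42 h. That lowest signal hardly moved the log2 means, from 6.3 to 6.3 at 24 h and from 6.27 to 6.29 at 42 h. Both ratios are therefore close to those without that floor, and are not lower bounds. The main fit too adds the offset of 50 to both colours, which draws ratios of so dim a spot toward 1. Before any correction the spot read 101, 102 and 146 at 6 h in WT, Tlr7-/- and Tlr9-/- cells, over backgrounds of 37, 41 and 39. At 24 h it read 69, 64.2 and 66.3, over backgrounds of 38, 36 and 37. The call at 6 h was lost without the WT arrays (0.29, adjusted p = 0.209), without the Tlr9-/- arrays (0.35, adjusted p = 0.0525) and in the Cy5 channel alone (0.38, adjusted p = 0.0673). The size depended on the processing. Processed signals gave 2.31 at 6 h (limma adjusted p = 0.0216) and a fit of the authors' deposited table gave 2.45 (adjusted p = 0.0208). Neither of these adds the offset of 50, and the cause of the gap was not tested. The local background of the Tlr9-/- 0 h spot was 204 in Cy5, against 35 to 41 on the other arrays.

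Xbp1, the transcription factor of the unfolded protein response, was bright on every array and moved little on the loess scale. At 0 h its log2 ratio was 0.07 in Tlr7/9-/-, -0.35 in Tlr9-/-, 0.12 in Tlr7-/- and 0.23 in WT cells. At 6 h it was 0.40 in Tlr7/9-/-, 0.54 in Tlr9-/-, 0.39 in Tlr7-/- and 0.50 in WT cells. These 4 arrays lay close together and above all 4 at 0 h. At 24 h it was 0.19 in Tlr7/9-/-, 0.35 in Tlr9-/-, 0.32 in Tlr7-/- and 0.38 in WT cells. At 42 h it was -0.03 in Tlr7/9-/-, 0.20 in Tlr9-/-, 0.51 in Tlr7-/- and 0.84 in WT cells, the last from a spot dim in the pool. The 42 h arrays spread more widely than the 6 h arrays and overlapped the 0 h arrays.

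Xbp1 averaged 0.48 ± 0.07 at 6 h, against 0.00 ± 0.30 at 0 h (SD, n = 3), a rise of 0.48 ± 0.14 or 1.39-fold (limma adjusted p = 0.0216). The spread at 0 h came mainly from the Tlr9-/- array, and the call was lost without the arrays of any 1 genotype (0.28 to 0.58, adjusted p = 0.0514 to 0.084). It was also lost in the authors' deposited table (0.42, adjusted p = 0.0778), with the processed signals (0.28, adjusted p = 0.218) and in the Cy5 channel alone (0.43, adjusted p = 0.653). At 24 h the difference from 0 h was 0.35 ± 0.14 (adjusted p = 0.0739). At 42 h it was 0.52 ± 0.14 or 1.43-fold (adjusted p = 0.0192), but 0.40 without the WT 42 h array (adjusted p = 0.0858) or with dim spots set to missing (adjusted p = 0.0562). The 42 h call was also lost without all WT arrays (0.47, adjusted p = 0.121), without the Tlr7-/- arrays (0.58, adjusted p = 0.112) and with processed signals (0.40, adjusted p = 0.0988). In the Cy5 channel alone, where the WT 42 h spot is dim, the change was -0.60 (adjusted p = 0.482). Median centring gave 1.33, 1.46 and 0.81 at 6, 24 and 42 h (adjusted p = 0.000133, 7.64e-05 and 0.00673), and a fall of 0.65 between 24 and 42 h (adjusted p = 0.0307), where the loess value was 0.17 ± 0.14. Without the WT 42 h array, or with dim spots set to missing, that loess value was 0.05. The values of Xbp1 differed between the scalings by more than their standard error at 6, 24 and 42 h.

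Sdc1, the CD138 gene, passed the threshold at no time. At 0 h its log2 ratio was 0.05 in Tlr7/9-/-, 0.12 in Tlr9-/-, -0.18 in Tlr7-/- and -0.05 in WT cells. At 6 h it was -0.96 in Tlr7/9-/-, -0.92 in Tlr9-/-, -0.18 in Tlr7-/- and -0.15 in WT cells. The pair without TLR9 was about 1 log2 unit below its own 0 h arrays, at -1.01 and -1.03, and the pair with TLR9 was at 0.00 and -0.10. At 24 h the values were 0.34 in Tlr7/9-/-, 0.78 in Tlr9-/-, -0.65 in Tlr7-/- and -0.46 in WT cells, so the order of the pairs was the opposite of that at 6 h. At 42 h they were 1.34 in Tlr7/9-/-, 0.07 in Tlr9-/-, -0.03 in Tlr7-/- and 0.35 in WT cells. The Tlr7/9-/- array at 42 h had the highest Sdc1 ratio of all 16 arrays, with a Cy5 signal of 808, against 129 to 482 on the other arrays.

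The fitted differences of Sdc1 from 0 h were -0.38 ± 0.34 at 6 h (adjusted p = 0.415), -0.08 ± 0.34 at 24 h (adjusted p = 0.877) and 0.17 ± 0.34 at 42 h (adjusted p = 0.739, limma). The Tlr9-/- arrays ran against the other 2 genotypes. Leaving them out keeps WT and Tlr7-/- cells, 2 arrays a time on the same slide. The p-values that follow then rest on how well these 2 genotypes agreed. Without the Tlr9-/- arrays, Sdc1 was lower at 24 h than at 0 h, by -0.45 (adjusted p = 0.00829), lower at 24 h than at 6 h, by -0.39 (adjusted p = 0.0218), and higher at 42 h than at 24 h, by 0.72 (adjusted p = 0.00252). Whether the courses of the pairs with and without TLR9 differ was not tested, and the pairs lie on separate slides. Of 6 markers of epithelial and stromal cells, other sources of Sdc1, between 0 and 4 were well above background at 0 h and between 1 and 3 at 6, 24 and 42 h. Of the 4 that could be tested, 1 was higher and 1 lower at 6 h, with a median of -0.21, where 22.8% of all genes were higher and 23.8% lower. Epcam, which activated lymphocytes can also express, was higher by 2.06 ± 0.14 (adjusted p = 3.15e-06), and Cdh1, which encodes E-cadherin, was at -0.66 ± 0.11 (adjusted p = 0.000576). Their part in the Sdc1 values was not tested.

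Igj, the joining chain of secreted antibody, fell in every genotype. At 0 h its log2 ratio was -0.54 in Tlr7/9-/-, 0.05 in Tlr9-/-, 0.78 in Tlr7-/- and -0.99 in WT cells, a range wider than that of any of the other 4 genes at that time. At 6 h it was -2.66 in Tlr7/9-/-, -2.27 in Tlr9-/-, -1.93 in Tlr7-/- and -3.33 in WT cells. All 6 h arrays lay below all 0 h arrays, and WT was lowest and Tlr7-/- highest at both times. At 24 h it was -2.86 in Tlr7/9-/-, -3.29 in Tlr9-/-, -3.09 in Tlr7-/- and -4.33 in WT cells. At 42 h it was -3.14 in Tlr7/9-/-, -2.33 in Tlr9-/-, -3.70 in Tlr7-/- and -3.21 in WT cells, the last from a spot dim in the pool. No array of 24 or 42 h overlapped the 0 h arrays.

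The change of Igj at 6 h was -2.46 ± 0.37, a level 5.48-fold lower, with -2.51 ± 0.73 at 6 h against -0.05 ± 0.89 at 0 h (SD, n = 3; limma adjusted p = 0.000443, lower in 3 of 3 genotypes). At 24 h it was 11.4-fold lower than at 0 h, at -3.52 ± 0.37 (adjusted p = 5.31e-05), and at 42 h 8.16-fold lower, at -3.03 ± 0.37 (adjusted p = 0.00023). Without the WT 42 h array the 42 h change was -3.38 (adjusted p = 0.000391). The change of -1.06 ± 0.37 between 6 and 24 h missed the threshold (adjusted p = 0.0567), and passed it without the WT 42 h array (adjusted p = 0.0413) and under 4 other alternatives. Between 24 and 42 h none of the 5 genes passed (limma; 1 at an unadjusted p under 0.05), against 5.65% of all genes, 2.09% higher and 3.56% lower. That share rested on the arrays used: in place of 1276 genes, 1 passed without the WT 42 h array, 0 without all WT or all Tlr7-/- arrays, and 5320 without the Tlr9-/- arrays. The Igj fall kept its direction and its call at 6, 24 and 42 h under all 16 alternatives. Markers of B cells fell alongside it: 6 of 6 were lower at 6 h, with a median of -2.62, where 23.8% of all genes were lower. The range of the summed Cy5 signal of these markers was 65600 to 84000 at 6 h against 269000 to 347000 at 0 h. Their part in the Igj change was not tested.

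**Figure D3:**
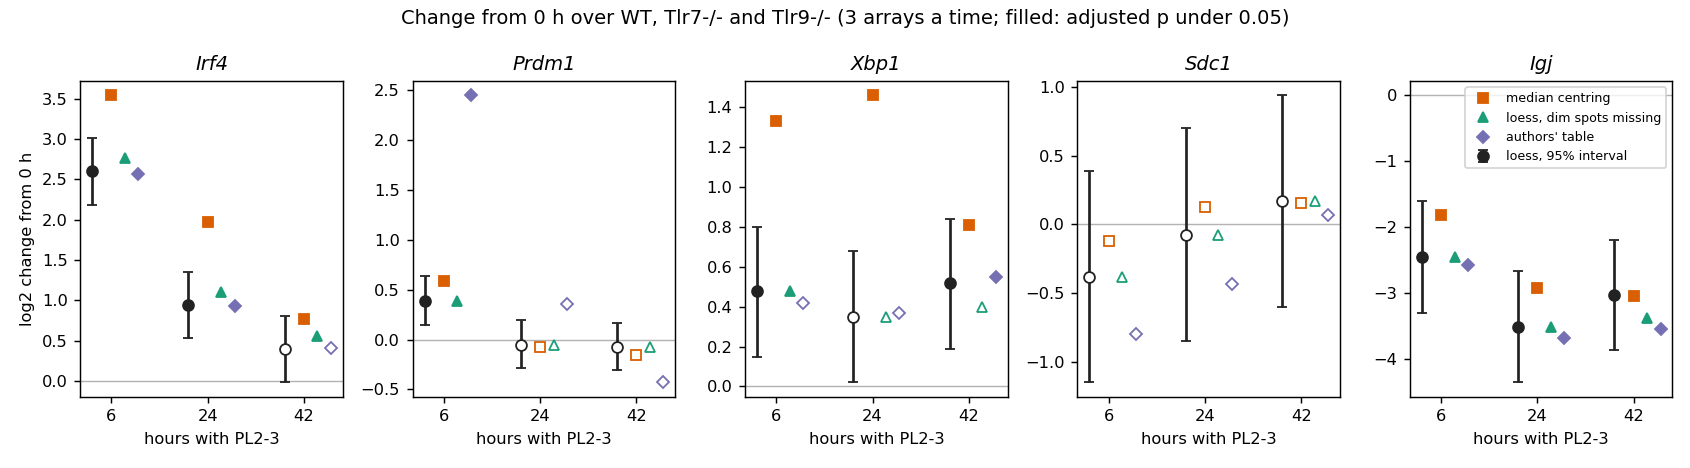
Fitted log2 change from 0 h at 6, 24 and 42 h over WT, Tlr7-/- and Tlr9-/- for the 5 genes, with the 95% interval of the loess values and the same change under median centring, with dim spots missing and in the authors' table (filled symbols: adjusted p under 0.05). Irf4 at 6 and 24 h and Igj at all times kept their direction and call; the size for Xbp1 ran from 0.35 with loess to 1.46 with median centring at 24 h.

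In Tlr7/9-/- cells, which have neither receptor, the same genes were high and low at 6 h. The single 6 h array exceeded its own 0 h array by 2.89 for Irf4, 0.43 for Prdm1 and 0.34 for Xbp1, and Igj was -2.12. For Irf4 this was 7.40-fold, a rise past 2-fold that 8.65% of genes showed on this pair of arrays. For Igj it was 4.36-fold lower, and 8.62% of genes were at least 2-fold lower. With 1 array per time these changes have no test. At 42 h Irf4 was 1.17 and Igj -2.60 relative to the 0 h array of Tlr7/9-/- cells.

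Genotypes were then compared over the 6, 24 and 42 h arrays. None of the 5 genes passed in any of the 5 genotype comparisons by limma. In Tlr9-/- against WT cells, 0.0563% of 23075 genes passed and 2 of the 5 genes had an unadjusted p under 0.05. In Tlr7-/- against WT cells 0.00433% of genes passed, and in Tlr9-/- against Tlr7-/- cells 0.126%, with 0 and 1 of the 5 genes under that unadjusted p. In Tlr7/9-/- against Tlr9-/- cells 0.0433% passed, and in Tlr7/9-/- cells against the other 3 genotypes 0%, with 0 and 1 of the 5 genes. With so few calls over all genes, a gene that does not pass is not shown to be alike between genotypes, and the intervals are given.

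Irf4 had the lowest unadjusted p of the 5 genes in the comparisons of Tlr9-/- cells with WT and with Tlr7-/- cells. Over the stimulated arrays it averaged 1.94 ± 1.13 in Tlr9-/- and 1.29 ± 1.22 in WT cells (SD over 3 times), and the difference of 0.65 ± 0.17 (95% interval 0.27 to 1.03) was positive at 3 of 3 times (unadjusted p = 0.00392, adjusted p = 0.385). Against Tlr7-/- cells the difference for Tlr9-/- cells was 0.77 ± 0.17 (0.39 to 1.15, unadjusted p = 0.00134, adjusted p = 0.284), also at 3 of 3 times. Both comparisons cross the slides. Within a slide, Tlr7/9-/- and Tlr9-/- cells differed by -0.02 ± 0.17 (-0.40 to 0.36) and Tlr7-/- and WT cells by -0.12 ± 0.17 (-0.50 to 0.26). With median centring the difference between Tlr9-/- and WT cells was 0.04 (adjusted p = 0.94). That between Tlr9-/- and Tlr7-/- cells was 0.22 (adjusted p = 0.681), so both depended on the scaling. The response of Tlr9-/- cells, stimulated arrays less the 0 h array, exceeded that of WT cells by 0.68 ± 0.34 (adjusted p = 0.642). That value rests on the dim WT 0 h spot and cannot be computed without it.

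Igj was higher in Tlr9-/- than in WT cells by 0.99 ± 0.36 (0.18 to 1.80), at an adjusted p of 0.492, and by 1.32 without the WT 42 h array (adjusted p = 0.847). Its mean was -2.63 ± 0.58 in Tlr9-/- and -3.62 ± 0.61 in WT cells (SD over 3 times). WT cells were already low at 0 h, and the difference between the responses was -0.05 ± 0.72 (adjusted p = 1), or 0.28 without the WT 42 h array (adjusted p = 1), so its sign rests on that array. Tlr7-/- cells lay 0.72 ± 0.36 above WT cells (-0.09 to 1.53, adjusted p = 1), or 1.05 without that array (adjusted p = 1).

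The remaining genes differed less between genotypes or varied more. The Prdm1 difference between Tlr7/9-/- cells and the other 3 genotypes was 0.25 ± 0.11 (0.01 to 0.48, adjusted p = 0.245), from a spot well above background in Cy5 on 2 of 3 stimulated arrays of Tlr7/9-/- cells and on 1 of 3, at 6 h, of each other genotype. The Xbp1 difference there was -0.26 ± 0.12 (-0.53 to 0.01, adjusted p = 0.282), or -0.20 without the WT 42 h array (adjusted p = 0.267). The intervals of Sdc1 ran from -0.96 to 1.09 for Tlr9-/- against WT cells and from -0.37 to 1.13 for Tlr7/9-/- cells against the rest. In none of the 3 tests of response differences did any of the 5 genes pass, and none had an unadjusted p under 0.05 (limma). Over all genes 1.41% passed for Tlr9-/- less WT, 0% for Tlr7-/- less WT and 0.0382% for Tlr7/9-/- less the other 3. The 1.41% was not stable: in place of 333 genes, 1 passed without the WT 42 h array. It was 0 with median centring and 1361 with no filter on dim probes.

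**Figure D4:**
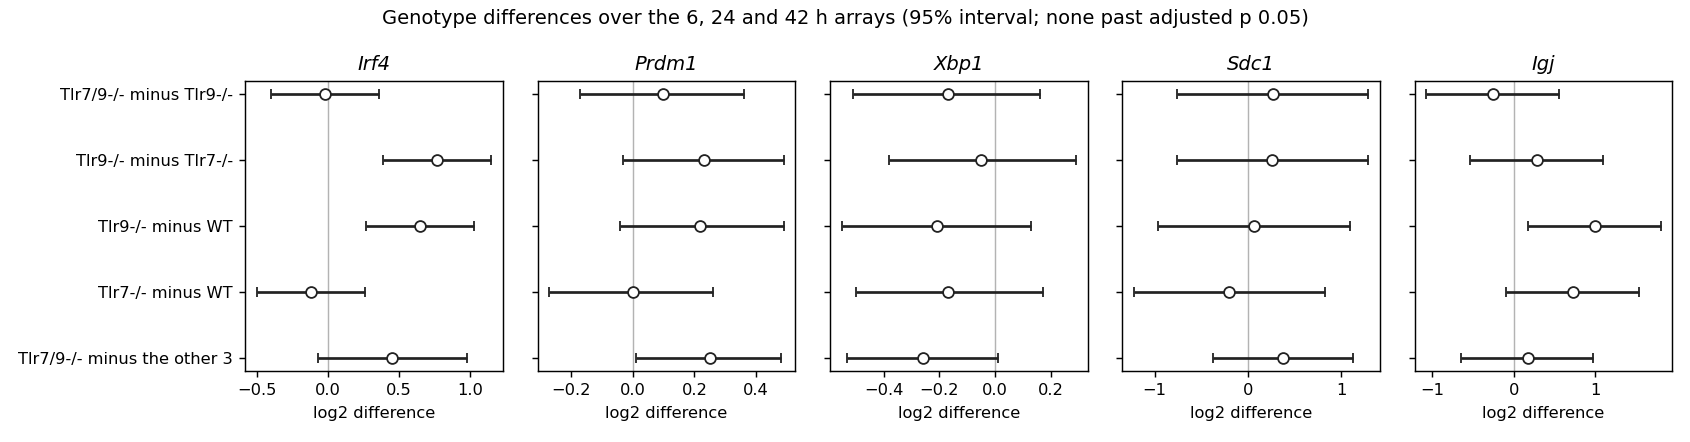
Log2 difference between genotypes over the 6, 24 and 42 h arrays with its 95% interval, for the 5 genes and 5 comparisons; scales differ between panels. For Irf4 the loess intervals of both comparisons of Tlr9-/- with a genotype on the other slide lie above 0. Those within a slide include 0, and no adjusted p passed 0.05. Median centring gave 0.04 for Tlr9-/- less WT and 0.22 for Tlr9-/- less Tlr7-/- cells.

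Other genes of the pathway were described from 4 lists, every gene of which passed the filter on dim spots. Of 19 targets of XBP1 and the unfolded protein response, 14 were higher and 1 lower at 6 h, with a median change of 1.0 against 0.00 over all genes. Of all genes, 22.8% were higher and 23.8% lower at 6 h. At 24 h 13 rose and none fell (median 0.63), where 22.6% of all genes were higher and 25.9% lower. At 42 h, where 17.3% of all genes were higher and 20.6% lower, 12 rose and 1 fell (median 0.52, or 0.48 with 11 higher and 1 lower without the WT 42 h array). At 6 h the rises were led by the chaperone Hspa5 (1.86 ± 0.10), the DnaJ cochaperone Dnajb9 (1.78 ± 0.12), Sdf2l1 (1.39 ± 0.15) and the chaperone Hyou1 (1.34 ± 0.15), and Herpud1, of protein degradation at the endoplasmic reticulum, fell by 0.45 ± 0.13. Sdf2l1 was the highest at 24 h (2.25 ± 0.15) and at 42 h (2.33 ± 0.15). The disulfide isomerase Pdia6 stood at 1.02 ± 0.19 at 24 h and 1.16 ± 0.19 at 42 h, and Dnajb9 was lower than at 0 h by then (-0.48 ± 0.12). With median centring 17 of the 19 rose and none fell at 6 h (median 1.75, against 0.22 over all genes). Under that scaling 75.7% of the calls over all genes were higher.

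Of 14 partners and upstream factors, 2 rose and 6 fell at 6 h, 2 rose and 8 fell at 24 h, and 1 rose and 8 fell at 42 h. Of all genes, 22.8% were higher and 23.8% lower at 6 h, 22.6% and 25.9% at 24 h, and 17.3% and 20.6% at 42 h. Batf, the AP-1 factor that binds DNA together with IRF4, rose by 3.47 ± 0.28 at 6 h, 3.04 ± 0.28 at 24 h and 2.04 ± 0.28 at 42 h, or 11.1-fold at 6 h. The zinc finger factor Zbtb20 (-2.43 ± 0.17), Ikzf1, which encodes Ikaros (-2.41 ± 0.22), and Pou2af1, the octamer coactivator (-1.66 ± 0.33), fell at 6 h. Ell2, an elongation factor used for secreted heavy chain mRNA, was higher at 24 h (0.56 ± 0.20). The balance of this list depended on the scaling: with median centring 6 rose and 3 fell at 6 h, with a median of 0.23 against 0.22 for all genes and -0.30 with loess.

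Of 18 genes of the plasma cell surface, survival and secretion, 2 rose and 9 fell at 6 h, 3 rose and 9 fell at 24 h, and 3 rose and 6 fell at 42 h (2 and 8 without the WT 42 h array). The numbers that rose were near or below the shares of all genes higher, 22.8% at 6 h, 22.6% at 24 h and 17.3% at 42 h, and 23.8%, 25.9% and 20.6% of all genes were lower at these times. The receptor Slamf7 rose by 2.21 ± 0.26 at 6 h and the peroxiredoxin Prdx4 by 1.13 ± 0.34, and Prdx4 reached 1.88 ± 0.34 at 42 h. The integrin chains Itgb7 (-5.91 ± 0.16, 60.1-fold lower) and Itga4 (-3.47 ± 0.18) fell at 6 h, as did Mzb1, a chaperone of antibody assembly (-3.12 ± 0.40), and Cd38 (-3.00 ± 0.16). Derl3, of degradation at the endoplasmic reticulum, was 2.28 ± 0.79 at 42 h with an adjusted p of 0.0466.

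Of 20 B cell factors and surface genes that plasma cells silence, 16 fell and 2 rose at 6 h (median -1.54), 15 fell and none rose at 24 h (median -1.86), and 13 fell and none rose at 42 h (median -1.23). Of all genes, 23.8% were lower at 6 h, 25.9% at 24 h and 20.6% at 42 h, and 22.8% were higher at 6 h. The falls at 6 h were led by Ets1 (-3.54 ± 0.25), the complement receptor Cr2 (-3.33 ± 0.47), and Fcer2a and Ms4a1, the genes for CD23 and CD20 (-2.84 ± 0.31 and -2.84 ± 0.15). Bcl6, a repressor that Blimp-1 opposes, was -3.45 ± 0.20 at 24 h and -3.06 ± 0.20 at 42 h. The chemokine receptor Ccr7 (2.71 ± 0.29) and Irf8 (0.58 ± 0.14) rose at 6 h. Between 24 and 42 h 4 of the 20 genes rose and 0 fell, where 2.09% of all genes were higher and 3.56% lower. They were Ms4a1 (0.77 ± 0.15), Id3 (0.74 ± 0.15), Spib (0.67 ± 0.10) and Cd22 (0.60 ± 0.13). Without the WT 42 h array, with processed signals, in the authors' table or in the Cy5 channel alone, 0 of the 20 genes passed. With median centring 0 rose and 2 fell, with a median of -0.06 against -0.22 for all genes. Without the Tlr9-/- arrays 9 rose and 2 fell. Ms4a1 and Cd22 are also among the B cell markers.

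**Figure D5:**
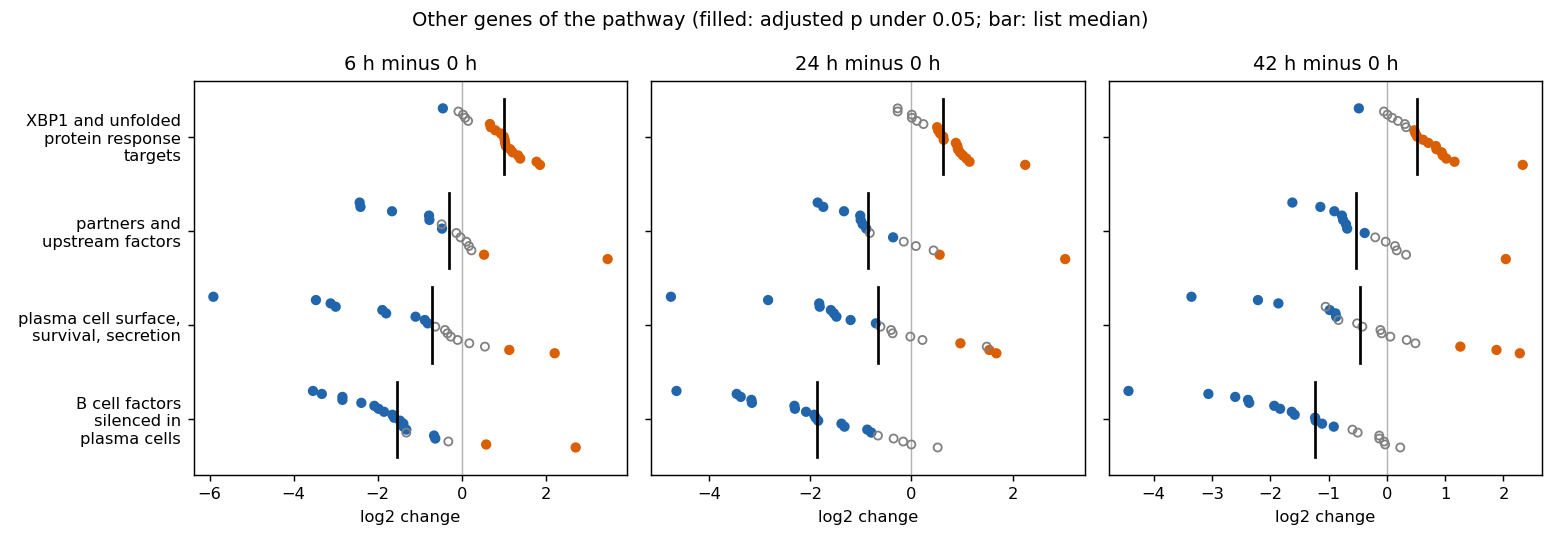
Log2 change from 0 h of each gene on the 4 pathway lists at 6, 24 and 42 h over WT, Tlr7-/- and Tlr9-/-, with filled points past an adjusted p of 0.05 and a bar at the list median. Targets of XBP1 and the unfolded protein response lie mostly to the right, with medians of 1.0, 0.63 and 0.52. Silenced B cell genes lie mostly to the left, with medians of -1.54, -1.86 and -1.23.

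None of the 4 lists had a member past the threshold in a comparison of genotypes, where only 0% to 0.126% of all genes passed. This does not set the lists apart. Markers of cells other than B cells also moved over time. At 6 h 9 of 10 myeloid, 6 of 6 NK, 5 of 7 tested T cell and 5 of 6 erythroid markers fell, with medians of -1.71, -1.16, -0.67 and -1.59. Of all genes, 23.8% were lower at that time. The T cell kinase gene Lck rose by 1.58 ± 0.24. Their part in the changes above was not tested.

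The genes whose pattern over the 16 arrays was most like each of the 5 were ranked by Pearson correlation, as a description of arrays that share the pool and 4 times. For Irf4 they were Fam83g, Lilr4b, Git1, Pprc1 and the glutamine transporter gene Slc1a5, with r from 0.971 to 0.977. For Prdm1 they were Col20a1, Blcap, Zmiz2 and the amino acid transporter gene Slc1a4 (0.865 to 0.887), with 1 unnamed intergenic interval. For Xbp1 they were Alg2, of N-glycan synthesis, Ssr3, of the translocon, Atp5mpl, Aurkaip1 and Pdia6 (0.878 to 0.909), and for Sdc1 Ltbp3, Ncf1, Hsbp1, Tpm2 and Zfp385a (0.826 to 0.884). For Igj the highest were 2 probes that the array design describes as predicted immunoglobulin heavy chain transcripts (0.986 and 0.971), followed by an unnamed interval, Slpi (0.949) and the histone gene H2ac18 (0.945). Without the WT 42 h array, 1 of the 5 was still among the first 5 for Xbp1, with the others at r of 0.852 to 0.872, against 5 of 5 for Igj, 4 for Irf4 and 3 each for Prdm1 and Sdc1.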

How the data were processed

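The data are 16 2-colour Agilent mouse arrays, 1 for each genotype and time. Per the file headers, spots were quantified by Feature Extraction 10.1.1.1 and the probe annotation is on mm9. Each deposited intensity was, per colour, a spot's uncorrected mean and its local background median, and the deposited processed intensity was background-subtracted and dye-normalized by that software. The authors' value table holds the log10 of the ratio of processed Cy5 over Cy3 signals, within 6e-04 of the scanner values, uncentred, with column medians of -0.145 to 0.022, so its scale and direction are known, and the deposited flags are 0 or 1 values, described here as a score.

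From the uncorrected intensities, limma 3.58.1 in R 4.3.3 (data.table, version 1.17.8) applied normexp (offset 50) and loess within each array, control spots at weight 0, giving log2 of Cy5 over Cy3. Each gene was its brightest probe, and was tested when at least 3 arrays of the fit had it well above background in Cy5 or Cy3. Changes over time used the 12 arrays of WT, Tlr7-/- and Tlr9-/- with genotype as a term, genotype differences the 12 arrays of 6 to 42 h with a term for time, and response differences all 16 arrays, in which the single 0 h arrays were assumed to vary like the others. Benjamini-Hochberg adjustment ran over all genes tested, 2-sided, with a threshold of 0.05, in 13 comparisons. Symbols came from RefSeq tables (GRCm38.p6), matched by accession for 27242 probes and otherwise by current or older symbol. For 24296 probes none was found and the name in the files was kept. Counts over all genes therefore include features without a RefSeq symbol. The number of arrays limits the precision.

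The 5 genes and all lists were chosen with earlier results of these data known. Named were the 5 genes, up to 4 genes per list, comparison and direction with the largest changes past the threshold, and the 5 most alike genes among those well above background in Cy5 on at least 8 arrays. Pool spots over 2-fold below their usual level were marked dim. Setting them to missing, leaving out the WT 42 h array and using the Cy5 channel alone were alternatives chosen after seeing the data; the others are named in the closing section.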

Additional observations from a re-analysis of the deposited data

How the results depend on the processing

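No paired analysis was possible because the labels carry no replicate numbers to pair samples by, and genotype or time entered the fits as a term instead. Over the 65 results for single genes and comparisons, 996 values were computed under alternatives. Of these, 958 kept direction and side of the threshold or were below it throughout, 19 lost the call, 15 gained one and 4 turned direction with a call on 1 side. The turned values were -0.60 for Xbp1 at 42 h against 0 h in the Cy5 channel alone, where the WT 42 h spot is dim, -0.39 for Sdc1 at 24 h against 6 h without the Tlr9-/- arrays (-0.39 to 0.69 over the genotypes left out), -0.65 for Xbp1 at 42 h against 24 h with median centring, and 0.86 for the Prdm1 response of Tlr9-/- less WT cells without background subtraction, where the local background of the Tlr9-/- 0 h spot was high. The cause of the Sdc1 value and of the value with median centring was not tested.

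The number of the 5 genes past the threshold at 6 h was 4, and 2 in the Cy5 channel alone and 2 to 3 when a genotype was left out. At 42 h it was 2, and 1 with processed signals, 1 without the WT 42 h array and 1 to 2 when a genotype was left out. Between 6 and 24 h it was 2, and 1 with processed signals, in the authors' table or without background subtraction, and 1 to 3 when a genotype was left out. Between 24 and 42 h it was 0, and 2 with median centring and 0 to 2 when a genotype was left out. It was 1 in place of 0 for the response of Tlr9-/- less WT cells without background subtraction. In all other comparisons and alternatives run it stayed within 1.5 times. The alternatives were median centring, processed signals, the authors' table, no background subtraction, Aquantile (which leaves log ratios as they are), no or a stricter filter on dim probes, the mean over a gene's probes, outlier spots kept, all 4 genotypes, a genotype or time left out, and the 3 added after seeing the data. No replicate exists to set against any single array.

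Counts over all genes varied more: 10531 at 6 h (7282 to 11690), 10964 at 24 h (7741 to 11840), 8546 at 42 h (4127 to 9915), 7235 between 6 and 24 h (2593 to 8356) and 1276 between 24 and 42 h (0 to 5320). They were 13 for Tlr9-/- against WT cells (4 to 37), 29 for Tlr9-/- against Tlr7-/- cells (5 to 40), 10 for Tlr7/9-/- against Tlr9-/- cells (5 to 10), 0 for Tlr7/9-/- cells against the rest (0 to 6), and for the response differences 333 (0 to 1361), 0 (0 to 5) and 9 (0 to 9). Of the calls at 6 and 24 h, 75.7% and 77.0% were higher with median centring, against 49.0% and 46.6% with loess. At 42 h 58.6% were higher with median centring, 32.8% with processed signals and 57.6% in the Cy5 channel, against 45.7% with loess. Between 24 and 42 h 0.917% were higher with median centring and 0% with processed signals, against 37.0% with loess.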
